A study of Homo sapiens with 6 samples.

Results

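Peroxisomes and mitochondria both break down fatty acids, and the 35 genes described here encode enzymes, transporters and assembly factors of the 2 routes. They are rows of a table of 25548 genes from RNA sequencing of A375 cells, an established line from a human melanoma, treated with BMH-21, a compound that blocks RNA polymerase I and so the making of ribosomal RNA. The 35 were chosen by gene symbol as a functional group, with the difference between the BMH-21 and control values of this same table already known. AMACR, the member furthest below control, is therefore a description and not a tested result. All 35 symbols matched a row, and all 35 passed the minimum of 1 FPKM in at least 1 group. FPKM scales a gene's fragments by transcript length and library size, so levels of different genes can be set side by side.

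The series held 6 samples in 2 groups, with 3 samples each. One group received 1 µM BMH-21 for 6 h, and the other received the solvent DMSO and is titled 0 h. Drug and time in culture therefore cannot be told apart. All cells were A375 grown in DMEM with serum, a single line with no genetic change named in the labels. The table titles its columns as replicates, but they behave as 1 estimate per group between a pair of bounds, since rep 1 lies midway between rep 2 and rep 3 in 99.9% of rows where all values are above 0. No spread between replicates could be computed, so no p-value is given, and the read depth is unknown. No source used here gives the confidence level of the bounds.

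The labelled cell type was checked against marker genes. SOX10, a transcription factor of the melanocyte lineage, stood at 97.0 FPKM in control and 90.0 FPKM with BMH-21, while the pigment genes PMEL, MLANA, TYR, TYRP1 and DCT were all under 1 FPKM. MITF, the master regulator of the lineage, was at 8.06 FPKM and 5.31 FPKM, and S100B at 28.7 FPKM and 17.8 FPKM, both lower with BMH-21 by more than the half-width of the difference, an error that joins the bounds of both groups. Summed over 11 listed markers, the melanocyte lineage was at 175 FPKM and 145 FPKM. Of 4 hepatocyte markers, a liver being where most of these pathways are best known, none reached 1 FPKM. Fibroblast markers summed to 4.71 FPKM and 9.34 FPKM over 6 genes. LUM and DCN carried this gap, LUM at 2.34 FPKM and 5.23 FPKM and DCN at 0.419 FPKM and 2.50 FPKM, both higher with BMH-21 by more than their half-widths, while COL1A1, COL1A2 and COL3A1 were under 1 FPKM. Keratinocyte markers summed to 12.3 FPKM and 12.9 FPKM over 5 genes, and leukocyte markers to 4.58 FPKM and 5.06 FPKM over 5 genes, nearly all of it LYZ (4.39 FPKM and 4.88 FPKM), with PTPRC near 0. The part of these levels in any difference below was not tested.

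Fatty acids that mitochondria cannot handle directly, such as very long and methyl-branched chains, are shortened in peroxisomes. Branched chains can carry their methyl group in a mirror-image form, which AMACR turns into the one the oxidases accept. The shortened products leave as carnitine esters and are burned in mitochondria, where acyl-CoA dehydrogenases pass their electrons through ETF to the respiratory chain. Peroxisomes have no DNA and import all their enzymes through the machinery of the peroxins, which the PEX genes encode. AMACR is also known as a tissue marker of prostate cancer.

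Between the groups, 3 of the 35 genes had intervals that did not overlap. AMACR was lower with BMH-21. CROT, which makes carnitine esters of medium-chain products in the peroxisome, and PEX6, an ATPase of peroxisomal import, were higher. The other 32 genes overlapped, which does not show equal levels. The 2 separate members higher, of 35, stand beside 3.58% of 12740 measured genes that were higher by the same criterion, and 1 lower stands beside 3.14% that were lower.

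The starts of the genes that parted are shown so that their surroundings can be seen beside the values. RefSeq promoter windows (GRCh38.p14), reaching from 250 bases before a gene's start to 50 bases after it, matched 28 of the 35 members with 37 windows, since 8 members have several starts. No window matched ACOX2, EHHADH, ACAA1, PEX2, PEX14, ECH1 and ETFDH. Coordinates of this build are given for these windows only, because the submitters' processing notes name GRCh37 for the table. Each line reads 5′ to 3′ on the gene's own strand, with the start after the first 250 bases, and capitals mark matches to the motifs named after the sequences.
AMACR, chr5:34008001-34008300, minus strand: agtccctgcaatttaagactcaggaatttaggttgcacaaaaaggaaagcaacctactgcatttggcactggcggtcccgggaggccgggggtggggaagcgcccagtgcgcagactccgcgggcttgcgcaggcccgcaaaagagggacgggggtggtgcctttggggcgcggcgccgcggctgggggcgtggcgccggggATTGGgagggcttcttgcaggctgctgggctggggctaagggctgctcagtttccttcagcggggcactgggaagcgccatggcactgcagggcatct
CROT, chr7:87345414-87345713, plus strand: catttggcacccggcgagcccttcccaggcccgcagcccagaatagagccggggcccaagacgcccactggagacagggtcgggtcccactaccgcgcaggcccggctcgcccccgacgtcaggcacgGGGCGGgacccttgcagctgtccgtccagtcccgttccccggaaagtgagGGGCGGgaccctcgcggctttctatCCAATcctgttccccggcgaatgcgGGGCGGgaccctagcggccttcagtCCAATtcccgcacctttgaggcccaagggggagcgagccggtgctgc
PEX6, chr6:42979132-42979431, minus strand: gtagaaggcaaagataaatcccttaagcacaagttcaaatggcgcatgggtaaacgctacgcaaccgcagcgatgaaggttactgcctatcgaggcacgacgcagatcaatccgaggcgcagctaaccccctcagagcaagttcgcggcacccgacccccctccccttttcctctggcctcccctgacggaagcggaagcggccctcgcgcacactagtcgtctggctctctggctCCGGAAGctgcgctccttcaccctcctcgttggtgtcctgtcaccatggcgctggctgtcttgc

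The motifs, searched on both strands, were the GC box GGGCGG, the CCAAT box CCAAT, the TATA box TATAAA, the E-box CACGTG, its variant CATGTG, the ETS motif CCGGAAG and the direct repeat known for PPAR receptors. They were chosen after the expression values were seen, and no matches overlapped in the 3 windows shown. The AMACR window held a single match, a CCAAT box on the opposite strand. The CROT window held 3 GC boxes and 2 CCAAT boxes, and the GC boxes lie inside 3 copies of the run GGGGCGGGACCCT spaced 50 bases apart. A run of 13 bases, with at least 3 different letters and in 3 or more separate copies, was found in 1.32% of 35116 windows. The length was set by the longest such run in the CROT window itself. The PEX6 window held 1 ETS motif.

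Among the windows of members, 27 of 37 held a GC box, against 45.0% of all 35116 windows and 66.4% of the 12748 windows of measured genes. A CCAAT box was in 10 of 37, against 34.6% of all windows and 35.1% of those of measured genes. An ETS motif was in 7 of 37, or 18.9%, against 10.3% of all windows and 17.0% of those of measured genes. The TATA box, the E-box and its variant were in 1 of 37 each, against 6.11%, 9.30% and 7.43% of the windows of measured genes and 11.5%, 7.26% and 11.1% of all windows. The PPAR direct repeat was in 0 of 37, against 0.0314% of the windows of measured genes and 0.0228% of all. A match describes letters in this window and is not a bound site.

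AMACR, the racemase of branched-chain breakdown, was estimated at 27.4 FPKM in control (bounds 22.2 to 32.6). With BMH-21 it was estimated at 6.25 FPKM (bounds 4.90 to 7.60). The intervals lie 14.6 FPKM apart, and they stayed apart under each of 3 other scalings. The estimate was 4.38-fold lower with BMH-21, a difference of -1.97 ± 0.38 in log2(FPKM + 1), the ± giving a half-width that joins the bounds of control and BMH-21. On that scale, which shrinks the folds of low genes, its difference was the lowest of the 12740 measured genes other than short RNAs, which is the value the choice of members rested on. Among the 35 members AMACR ranked 9 by level in control and 29 with BMH-21.

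The enzymes that act on the same chains had overlapping intervals. HSD17B4, which carries out the hydration and second oxidation of each round, was at 49.8 FPKM (bounds 40.8 to 58.9) in control and 54.1 FPKM (bounds 44.4 to 63.9) with BMH-21. SCP2, whose longer product is the thiolase for branched chains, was at 49.6 FPKM (bounds 39.9 to 59.3) and 48.9 FPKM (bounds 39.5 to 58.3). The intervals of each gene overlap over most of their width. The row of SCP2 cannot tell its products apart, for RefSeq lists 2 starts for this gene. The oxidases that open the cycle, ACOX2 (5.28 FPKM against 4.73 FPKM with BMH-21) and ACOX3 (7.51 FPKM against 7.04 FPKM), were far lower than HSD17B4 in both groups and overlapped between them. AMACR thus stood at 0.550 of the HSD17B4 level in control and at 0.115 with BMH-21.

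Genes beside AMACR in RefSeq's gene order gave no separate interval. SLC45A2, a melanosome transporter whose gene lies next to AMACR, was at 0.0774 FPKM and 0.107 FPKM, and C1QTNF3 on the other side was at 0.795 FPKM and 0.571 FPKM, all under the 1 FPKM minimum. A read-through row that joins C1QTNF3 with AMACR shares exons with AMACR, and its reads may be split between both. It was at 0.509 FPKM (bounds 0 to 1.22) and 0.182 FPKM (bounds 0 to 0.512), small beside either AMACR estimate. Of 9 listed neighbours, 5 were measured, and none was separate, beside 3.58% higher and 3.14% lower among all measured genes. By log2 difference, ADAMTS12 was the lowest of the 5 at 6.44 FPKM against 5.89 FPKM. The chaperone gene DNAJC21 had the highest difference, at 10.6 FPKM in control (bounds 8.63 to 12.5) and 13.6 FPKM with BMH-21 (bounds 11.2 to 16.1).

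**Figure D1:**
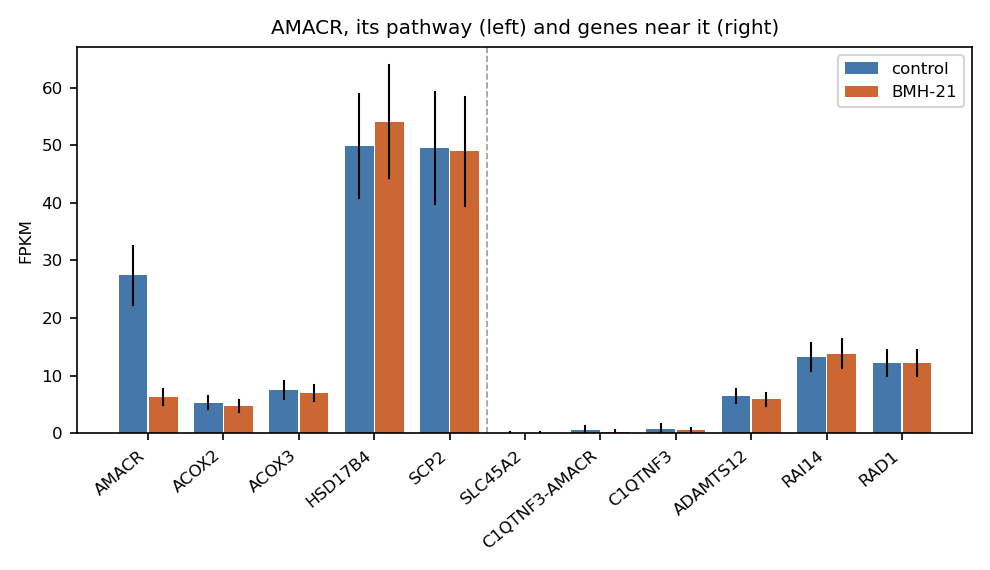
FPKM estimates (bars) with the authors' lower and upper bounds (black lines) in control and BMH-21, on a linear axis from 0. Left of the dashed line are AMACR and the enzymes that act on the same chains, right of it genes that lie near AMACR; AMACR is the one pair of bars with bounds apart, at 27.4 and 6.25 FPKM.

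For straight chains the peroxisome uses EHHADH and ACAA1. EHHADH, a bifunctional hydratase and dehydrogenase, was the least abundant member in both groups, at 1.87 FPKM (bounds 1.45 to 2.30) and 1.79 FPKM (bounds 1.37 to 2.21). HSD17B4, which does the same chemistry in mirror-image form, was 26.6 times as abundant in control and 30.2 times with BMH-21. ACAA1, the thiolase that ends a round, was at 15.3 FPKM (bounds 12.2 to 18.3) in control and 20.2 FPKM (bounds 16.4 to 24.0) with BMH-21. Its intervals overlapped, although its log2 difference of 0.38 reached just past the half-width, also 0.38. Phytanic acid, a dietary branched chain, first loses 1 carbon through PHYH and HACL1. PHYH, the hydroxylase, was at 8.49 FPKM and 7.93 FPKM, and HACL1, the lyase, was more abundant at 27.6 FPKM (bounds 22.4 to 32.8) and 31.1 FPKM (bounds 25.3 to 36.9), both overlapping.

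Transport into and out of the peroxisome is the work of ABCD proteins and CROT. CROT was estimated at 3.17 FPKM in control (bounds 2.38 to 3.96) and 5.69 FPKM with BMH-21 (bounds 4.43 to 6.96). The gap between the intervals is 0.465 FPKM, and the estimate was 1.80-fold higher (log2 difference 0.68 ± 0.39). CROT remained separate under each of 3 other scalings. ABCD3, the importer of branched and long-chain acyl-CoA, was at 22.0 FPKM (bounds 16.8 to 27.2) and 23.6 FPKM (bounds 18.3 to 29.0), and ABCD4, a relative known to move vitamin B12 out of lysosomes, at 7.16 FPKM and 7.14 FPKM. For both genes the intervals overlapped over most of their width.

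The CROT window shown above overlaps that of TP53TG1 by 271 bases on the other strand, so the 2 genes start back to back. TP53TG1, a non-coding gene named as a p53 target, was at 6.20 FPKM (bounds 4.49 to 7.90) and 9.02 FPKM (bounds 6.73 to 11.3), with overlapping intervals. ABCB4, a phospholipid transporter gene that overlaps CROT in RefSeq, was at 0.859 FPKM and 0.670 FPKM. The library kit keeps strand, but no source used here says whether the counting used it, so reads of overlapping genes may not be told apart. These neighbours were chosen after their values were seen.

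Peroxins made up 10 of the members, and PEX6 was the separate one, beside 3.58% higher and 3.14% lower among all measured genes. PEX6 is an ATPase of the motor that pulls the import receptor back out of the membrane. It was at 11.6 FPKM in control (bounds 9.35 to 13.8) and 17.5 FPKM with BMH-21 (bounds 14.2 to 20.7), 1.51-fold higher with a log2 difference of 0.55 ± 0.37. The gap was only 0.398 FPKM, and under each of the 3 other scalings the PEX6 intervals overlapped. PEX26, which anchors the motor in the membrane, was at 16.4 FPKM in both groups.

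PEX5, the receptor that carries enzymes to the peroxisome, was at 14.4 FPKM (bounds 11.6 to 17.2) and 16.1 FPKM (bounds 13.0 to 19.1). Its docking partners PEX13 and PEX14 had estimates on opposite sides, PEX13 at 6.85 FPKM and 7.51 FPKM, PEX14 at 14.2 FPKM (bounds 11.4 to 17.0) and 11.5 FPKM (bounds 9.27 to 13.8). PEX2 and PEX10 belong to the ubiquitin ligase that recycles PEX5, and both had lower estimates with BMH-21 and overlapping intervals. PEX2 was at 9.47 FPKM (bounds 7.65 to 11.3) and 7.20 FPKM (bounds 5.81 to 8.58), a log2 difference of -0.35 that equals its half-width of 0.35 at this rounding and lies just inside it. PEX10 was at 17.1 FPKM (bounds 9.14 to 25.1) and 14.3 FPKM (bounds 7.65 to 21.0), with the widest half-width of all members, 0.96.

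The peroxins that place membrane proteins and divide the organelle differed little between the groups. PEX19, the chaperone of membrane proteins, was the most abundant at 25.1 FPKM (bounds 20.5 to 29.7) and 27.1 FPKM (bounds 22.2 to 32.0). PEX3, its docking receptor, was at 7.27 FPKM and 7.93 FPKM, PEX16 at 17.9 FPKM and 17.8 FPKM, and PEX11A, which promotes division, at 5.27 FPKM and 5.14 FPKM. The log2 differences of these genes spanned only -0.03 to 0.11.

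Mitochondrial fatty acid oxidation was represented by 13 members, and none had separate intervals, beside 3.58% higher and 3.14% lower among all measured genes. The median log2 difference of the 13 was 0.02. CPT1A, the liver-type carnitine transferase that controls entry of long chains, was at 16.6 FPKM (bounds 13.5 to 19.7) and 15.8 FPKM (bounds 12.8 to 18.8), and CPT2, which reverses the reaction inside, at 14.8 FPKM (bounds 11.4 to 18.2) and 17.1 FPKM (bounds 13.2 to 21.1). Among the CPT1 genes CPT1A was the most abundant, CPT1B being at 4.23 FPKM and 4.92 FPKM and CPT1C at 1.41 FPKM and 1.08 FPKM.

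The acyl-CoA dehydrogenases differ in the chain length they take. ACADVL, for very long chains, was the most abundant member of all at 162 FPKM (bounds 132 to 192) and 164 FPKM (bounds 134 to 193). ACADM, for medium chains, was at 24.5 FPKM (bounds 19.9 to 29.1) and 31.7 FPKM (bounds 25.9 to 37.5). ACADS, for short chains, was at 6.48 FPKM (bounds 5.07 to 7.89) and 4.55 FPKM (bounds 3.51 to 5.59). The medium-chain and short-chain enzymes thus had estimates on opposite sides of control, both with overlapping intervals. The log2 difference of ACADM, 0.36, lay just inside its half-width of 0.37, while that of ACADS, -0.43, exceeded its half-width of 0.39.

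The trifunctional protein that completes each round for long chains is made of HADHA and HADHB, and their genes start back to back. The bases common to both promoter windows are shown because these subunits are made in equal number and their levels lay close together, with capitals marking a GC box on the opposite strand.
HADHA and HADHB, chr2:26244689-26244882, strand of HADHB: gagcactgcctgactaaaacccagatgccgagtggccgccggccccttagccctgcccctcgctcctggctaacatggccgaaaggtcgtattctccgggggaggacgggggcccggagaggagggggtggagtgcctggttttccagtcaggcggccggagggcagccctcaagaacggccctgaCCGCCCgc

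HADHA was at 73.3 FPKM (bounds 60.1 to 86.5) and 74.3 FPKM (bounds 60.9 to 87.7), and HADHB at 63.8 FPKM (bounds 52.2 to 75.4) and 68.8 FPKM (bounds 56.3 to 81.2). The ratio of the first to the second was 1.15 in control and 1.08 with BMH-21. HADH, the dehydrogenase for shorter chains, was at 15.1 FPKM and 13.6 FPKM, the thiolase ACAA2 at 20.2 FPKM and 22.2 FPKM, and ECH1, an isomerase for unsaturated chains, at 26.0 FPKM (bounds 18.8 to 33.1) and 25.8 FPKM (bounds 18.4 to 33.3). All overlapped.

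Electrons from the dehydrogenases pass to the flavoprotein ETF and on through ETFDH. The ETF subunits ETFA and ETFB were among the 3 most abundant members, ETFA at 103 FPKM (bounds 84.5 to 122) and 118 FPKM (bounds 96.4 to 139), ETFB at 135 FPKM (bounds 111 to 160) and 135 FPKM (bounds 111 to 159). ETFDH, the oxidoreductase that receives their electrons, was far lower at 5.20 FPKM (bounds 4.10 to 6.29) and 5.99 FPKM (bounds 4.75 to 7.23). Again no interval was separate.

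Across the 35 members, 18 estimates were higher with BMH-21 and 17 lower, and the median log2 difference was 0.01, beside 0.03 for all 12740 measured genes. Of all measured genes, 55.2% had higher estimates. The members' median half-width was 0.37, as in all measured genes. By the looser criterion of a difference larger than its half-width, 3 members were higher (CROT, PEX6 and ACAA1) and 2 lower (AMACR and ACADS), beside 7.19% higher and 7.07% lower among all measured genes. These looser calls depend on the scaling. Under each of the other scalings, ACAA1 fell inside its reported half-width and PEX2, lower with BMH-21, went past its reported half-width. Summed estimates of the members were 1021 FPKM in control and 1047 FPKM with BMH-21. Apart from AMACR, no member differed by as much as 2-fold, the extremes being ACADS, 1.42-fold lower, and CROT.

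**Figure D2:**
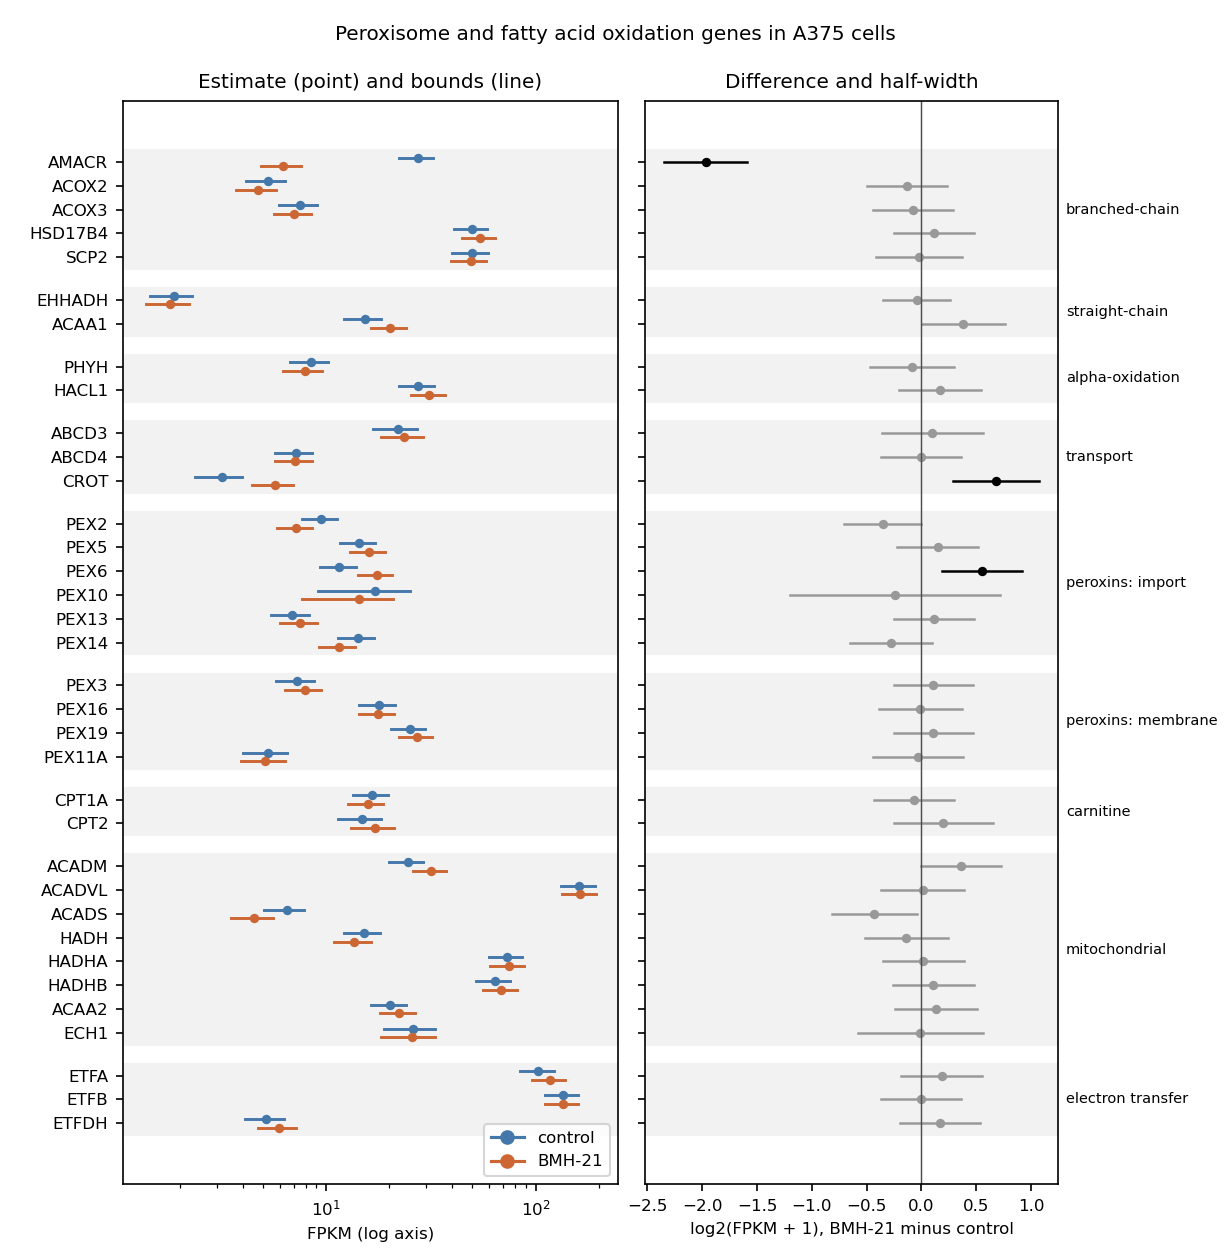
Left, FPKM estimates (points) and the authors' bounds (lines) of the 35 members in control and BMH-21 on a log axis; right, the difference in log2(FPKM + 1), BMH-21 minus control, with its half-width, black where intervals do not overlap. AMACR at -1.97, CROT at 0.68 and PEX6 at 0.55 are the black ones, and the other 32 genes scatter around 0.

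**Figure D3:**
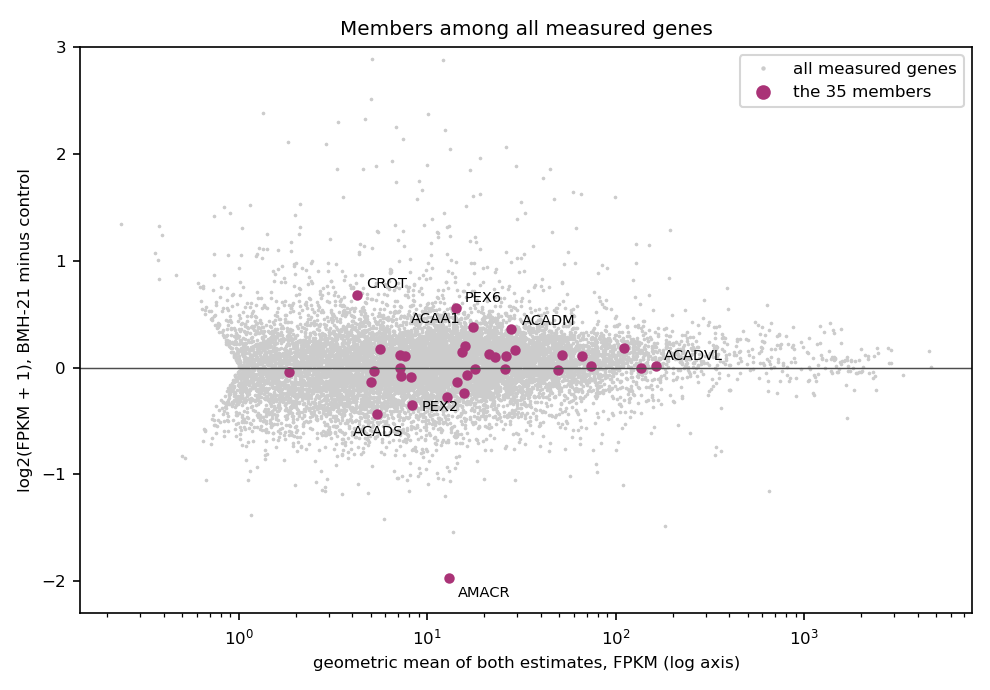
Difference in log2(FPKM + 1), BMH-21 minus control, against the geometric mean of both estimates in FPKM (log axis), for the 35 members and all measured genes other than short RNAs; 6 genes lie beyond the vertical axis. Most members sit within the grey cloud at their level, with AMACR alone at the bottom.

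Other genes of these pathways were drawn from 10 lists, and the lowest or highest gene named in each is meant by log2 difference between the groups, not by level. Their counts stand beside 3.58% separate and higher and 3.14% separate and lower among all measured genes, of which 55.2% had higher estimates. Some list genes with overlapping intervals passed the looser criterion of a difference larger than its half-width. These were NUDT7, ACSF3, ACSF2 and DHRS3, lower, and HSD17B12, TFAM, DNAJC21 and the PPAR target PLIN2, higher. Among all measured genes, 7.19% were higher and 7.07% lower by that criterion. Of 12 measured peroxins and division factors outside the members, 9 had lower estimates and 1 was separate, with a list median of -0.12. This was PEX11G, a relative of PEX11A, at 2.21 FPKM (bounds 1.48 to 2.95) and 1.03 FPKM (bounds 0.585 to 1.47), bounds that nearly touch at a low level. The largest positive difference was that of ACBD5, a tether to the endoplasmic reticulum, at 11.9 FPKM and 13.2 FPKM.

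Of 31 other peroxisomal matrix and membrane proteins, 22 were measured and 0 were separate, with a median of -0.05. NUDT7, which degrades coenzyme A, had the lowest difference, at 1.60 FPKM (bounds 1.04 to 2.15) and 0.810 FPKM (bounds 0.427 to 1.19). Enzymes typical of liver peroxisomes such as BAAT, HAO1 and AGXT were under 1 FPKM. In ether lipid synthesis 1 of 9 measured genes was separate and higher, beside a list median of 0.11. This was TMEM86B, which breaks plasmalogens down, at 1.91 FPKM (bounds 1.34 to 2.49) and 3.47 FPKM (bounds 2.59 to 4.34). The TMEM86B bounds nearly touch at a low level, and the lists were not run under the other scalings. FAR2, which makes fatty alcohols, had the lowest difference of the ether lipid list, at 6.61 FPKM and 5.80 FPKM.

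Of 20 measured genes of mitochondrial oxidation outside the members, 0 were separate (median -0.04). ACSF3, which activates malonate and methylmalonate, had the lowest difference, at 11.6 FPKM (bounds 9.31 to 14.0) and 8.15 FPKM (bounds 6.51 to 9.78), and ECHS1, the hydratase, the highest, at 80.1 FPKM and 94.1 FPKM. Of 22 measured genes of fatty acid activation and binding, 2 were separate, both lower (median -0.05). These were ACSS2, which makes acetyl-CoA from acetate, at 16.6 FPKM (bounds 13.5 to 19.8) and 10.8 FPKM (bounds 8.72 to 12.9), and MGLL, which frees fatty acids from monoglycerides, at 10.9 FPKM (bounds 8.83 to 13.0) and 7.08 FPKM (bounds 5.69 to 8.47). PNPLA8, a calcium-independent phospholipase, had the highest difference, at 12.0 FPKM and 15.3 FPKM.

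The opposite pathway, fatty acid synthesis and elongation, had 0 separate of 16 measured genes (median 0.03). FASN, the synthase, was at 134 FPKM (bounds 110 to 159) and 127 FPKM (bounds 105 to 148), a gene named after its values were seen. ELOVL5, an elongase, had the lowest difference, at 57.7 FPKM and 45.4 FPKM, and HSD17B12, a reductase of the elongation cycle, the highest, at 52.1 FPKM and 67.9 FPKM.

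Among 18 measured transcriptional regulators, 0 were separate (median -0.02). PPARA, the nuclear receptor that drives these genes in liver, was low at 1.97 FPKM and 1.73 FPKM, and PPARG, its relative in fat cells, higher at 34.5 FPKM and 42.2 FPKM; both were named after their values were seen. TFAM, a factor that maintains mitochondrial DNA, had the highest difference of the list, at 34.1 FPKM (bounds 27.8 to 40.5) and 46.7 FPKM (bounds 38.4 to 55.1), and SIRT3, a mitochondrial deacetylase, the lowest, at 4.52 FPKM and 3.76 FPKM. Of 9 measured PPAR target genes, 1 was separate and higher (median 0.19, with CPT1A and HADHA also counted among the members). It was ANGPTL4, a secreted lipase inhibitor, at 2.49 FPKM (bounds 1.84 to 3.15) and 5.17 FPKM (bounds 4.05 to 6.29). UCP2, a mitochondrial carrier, had the lowest difference, at 2.71 FPKM and 2.41 FPKM.

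Of 9 measured genes reported as p53 targets in lipid metabolism, 2 were separate and higher and 0 were separate and lower. Estimates were lower with BMH-21 for 6 of the 9, and the median was -0.11. ACER2, a ceramidase, was at 0.945 FPKM (bounds 0.668 to 1.22) and 4.63 FPKM (bounds 3.65 to 5.62), and PANK1, a coenzyme A kinase, at 1.68 FPKM (bounds 1.32 to 2.03) and 3.03 FPKM (bounds 2.44 to 3.63). DHRS3, a retinal reductase, had the lowest difference, at 78.5 FPKM (bounds 64.3 to 92.7) and 59.4 FPKM (bounds 48.5 to 70.2). The acyl-CoA dehydrogenase ACAD11 was at 6.83 FPKM and 6.49 FPKM, a row whose reads may be shared with a read-through gene.

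**Figure D4:**
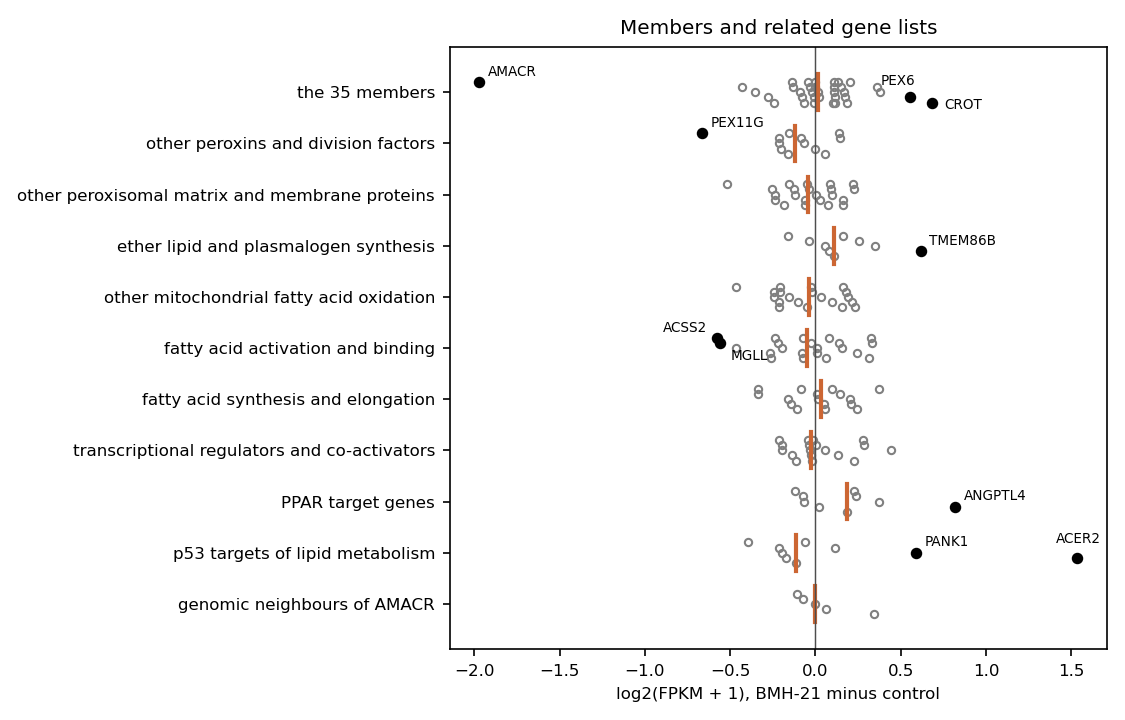
Difference in log2(FPKM + 1), BMH-21 minus control, of the measured genes in the 35 members and in 10 related lists; filled points mark genes whose intervals do not overlap, open points the others, and the orange line the list's median. All medians lie between -0.12 and 0.19, and AMACR and ACER2 lie furthest out.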

How the data were processed

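RNA was extracted with Trizol and made into stranded total RNA libraries, per the labels' protocols. The authors deposited 1 table of FPKM values. TopHat2, Cuffdiff 2.0 and GRCh37 are named in the submitters' processing notes, and no source used here names the gene annotation. Rep 1 lay midway between rep 2 and rep 3, to a relative 0.0001, in 16203 of 16213 rows for control and in 15872 of 15881 for BMH-21, so it was read as the deposited FPKM estimate and they as its bounds. The share of the 3 libraries in an estimate is unknown, and the depth cannot be had from FPKM.

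Differences are log2(FPKM + 1), which understates changes of low genes. The half-widths of control and BMH-21 on that scale were combined in quadrature. Intervals are separate where one group's lower bound exceeds the other's upper bound, which is no replicate test. Measured means at least 1 FPKM in 1 group. Short RNA rows (323, by symbol) and 11 rows with estimates outside their bounds were left out, and 12740 remained. The script was tested on simulated data.

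Members and lists were chosen with earlier results of these data known. A written rule gave full values for members that were separate or past their half-width, the 5 highest, the 5 lowest and the most abundant of each role, and, for each list, separate genes and both extremes, of which some are not reported here. The tools were Python 3.11.15, pandas 2.3.3, numpy 2.4.6 and matplotlib 3.10.9. PEDS1, MMUT and HACD3 matched no row by symbol, and the first and the second were also listed under older symbols.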

Additional observations from a re-analysis of the deposited data

How the results depend on the processing

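The number of higher members moved from 2 to 1 with a threshold of 1.5-fold taken after adding 1 FPKM, which PEX6 misses although its plain FPKM ratio is 1.51, and also with scaling by the upper quartile (1), the median ratio (1) or the same sum without short RNA rows (1). CROT was the one left under these scalings, while PEX6 overlapped. The number of lower members moved from 1 to 2 with a difference above its half-width, where ACADS joined AMACR. Filters of 5 FPKM and of none changed neither count. Removing the filter could not change them, since all 35 members already passed 1 FPKM. CROT, at 3.17 FPKM in control, passed 5 FPKM only through its BMH-21 estimate of 5.69 FPKM. The members' median log2 difference ranged from -0.07 (upper quartile) to 0.01 (either lower pseudocount) and was below 0 under each of 4 other scalings, which moved the median of all genes by -0.05 to -0.07. All 60 alternative differences of the 10 members furthest from control or past their half-width lay within the half-width of the reported one, and none reversed a called gene. That margin is wide beside such small shifts, so it says little about borderline calls. Under the 4 other scalings ACAA1, at 0.30 to 0.34, fell inside its reported half-width of 0.38. PEX2, at -0.43 to -0.38, went past its reported half-width of 0.35. Of 80 alternative list counts, 69 stayed within 1.5 times the reported count, and the other 11 changed by 1 gene or by 2. The list counts were not recomputed under the other scalings. No paired analysis was possible because each group gave 1 estimate and its bounds, and leaving out a replicate could not be run for the same reason. The bounds limit what can be seen: a typical member must differ by a log2 of about 0.37 to pass its half-width.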

Other observations

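Partners within a complex or a pathway were set side by side after their values were seen, as ratios of FPKM estimates. The ratio of ACADM to ACADS, the medium-chain and short-chain dehydrogenases, was 3.78 in control and 6.97 with BMH-21. CROT stood at 0.269 of the level of CRAT, the peroxisomal and mitochondrial transferase for short chains, in control and at 0.554 with BMH-21. The electron carrier ETFA stood at 0.763 and 0.870 of ETFB. No error is given for these ratios, which were not tested.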
